A study of Mus musculus with 28 samples.

Results

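The miR-99/100 and miR-125 families were followed across cartilage and bone of operated mouse knees. The 5 rows of their main arms were taken by name from a table of 569 miRNA rows: mmu-miR-99a-5p, mmu-miR-99b-5p, mmu-miR-100-5p, mmu-miR-125a-5p and mmu-miR-125b-5p, written here without the species prefix. All 5 held a value on all 28 arrays. The study asked which miRNAs differ in each joint tissue while post-traumatic osteoarthritis develops. Male C57BL6 mice of 10 to 12 weeks, per the labels' protocols, underwent bilateral destabilization of the medial meniscus (DMM), in which the ligament that anchors the medial meniscus is cut and the joint becomes unstable, or a bilateral sham operation that exposed the ligament and left it intact. Cartilage of the medial tibial plateau and the subchondral bone under it were laser-dissected 1 or 6 weeks later, and total RNA was hybridised to 1-colour Agilent mouse miRNA arrays. Tissue, operation and week gave 8 groups. Each of the 4 cartilage groups (sham or DMM, 1 or 6 weeks) had 3 arrays, each of RNA pooled from 3 mice. Each of the 4 bone groups had 4 arrays, each of 1 mouse. The protocols also name Jaffa mice, but every sample used here is labelled C57BL6. The titles of the bone samples also carry WT (wild type), and those of the cartilage samples give no genotype.

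Values are log2 signals as deposited, so a difference of 1 is a doubling. Array medians lay between 6.26 and 6.32 in cartilage and between 6.17 and 6.39 in bone, and the median within-group SD was 0.172 in cartilage and 0.333 in bone. Every cartilage array held a pool and every bone array 1 mouse, so pooling and tissue cannot be told apart in this contrast of spread. One label field calls the cartilage samples bone while the source field calls them cartilage. The summed signal of 4 cartilage markers (miR-140-5p, miR-140-3p, miR-455-5p and miR-455-3p) lay between 13.61 and 14.22 on the log2 scale on the arrays whose source is cartilage. On those whose source is bone, where 3 of the 4 had a row, it lay between 9.54 and 10.92, and the source field was followed. The summed leukocyte markers, which marrow in bone would carry, lay between 8.00 and 9.79 in cartilage (3 of 5 with a row) and between 12.27 and 14.39 in bone (5 of 5).

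A miRNA guides the silencing complex to messenger RNAs mainly through its seed, the bases near its 5′ end, so miRNAs of 1 seed can share targets. In mammals the miR-99/100 and miR-125 families are transcribed from shared clusters that also hold a let-7 miRNA, and the miR-99/100 family is known for targeting the kinase mTOR and the insulin-like growth factor 1 receptor. miR-125b is known as abundant in mesenchymal tissues and, in chondrocytes, for targeting the aggrecan-cleaving enzyme ADAMTS4, and miR-125a and miR-125b are related to lin-4, the founding miRNA of worms.

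The mature sequences are shown because the 5 rows fall into 2 seed groups, against which the differences described here are set. They come from RefSeq (mouse build GRCm38.p6), which matched all 5 names at 6 loci; they are written 5′ to 3′ with the seed, bases 2 to 8, in capitals.
miR-99a-5p: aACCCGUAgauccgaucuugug
miR-99b-5p: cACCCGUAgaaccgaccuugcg
miR-100-5p: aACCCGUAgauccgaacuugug
miR-125a-5p: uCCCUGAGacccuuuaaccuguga
miR-125b-5p: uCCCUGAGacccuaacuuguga

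miR-99a-5p, miR-99b-5p and miR-100-5p share the seed ACCCGUA, and miR-125a-5p and miR-125b-5p share CCCUGAG. Counted from the 5′ end, miR-100-5p differs from miR-99a-5p by 1 of 22 bases, U16A, and miR-99b-5p differs from miR-99a-5p by A1C, U11A, U16C and U21C. Without gaps, miR-125a-5p and miR-125b-5p differ at 7 of 22 bases. Whether the array's probes tell such close sequences apart was not tested, so each value is that of the row of that name.

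The loci form 3 clusters, all on the + strand. On chromosome 16, miR-99a-5p (chr16:77598940-77598961) lies 732 bases, start to start, before let-7c-1 and 47339 bases before the miR-125b-2 copy of miR-125b-5p (chr16:77646279-77646300). On chromosome 17, miR-99b-5p (chr17:17830194-17830215), let-7e and miR-125a-5p (chr17:17830817-17830840) lie within the annotated span of the protein-coding gene Spaca6, with 623 bases between the starts of miR-99b-5p and miR-125a-5p. On chromosome 9, miR-100-5p (chr9:41531437-41531458) and the miR-125b-1 copy of miR-125b-5p (chr9:41581940-41581961) lie 50503 bases apart within the long non-coding gene Mir100hg, with let-7a-2 between them. The row of miR-125b-5p carries the product of both its loci, which the array cannot separate.

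All 5 miRNAs had a higher signal in cartilage than in bone. A shared normalization of the tissues is not documented in the sources used here, so these levels are a description and carry no test. miR-125b-5p averaged 13.30 ± 0.13 (SD, n = 12) in cartilage and 10.04 ± 0.40 (SD, n = 16) in bone, a difference of 3.26 or 9.57-fold. Among the 359 rows with values in both tissues, whose median difference was -0.06, this was the 4th largest in the values as deposited, to which all ranks here belong. miR-100-5p had 9.86 ± 0.28 (SD, n = 12) and 7.08 ± 0.50 (SD, n = 16), a 6.86-fold difference ranked 6th, and miR-99a-5p had 11.18 ± 0.16 and 8.67 ± 0.46, a 5.68-fold difference ranked 7th. The miRNAs of the chromosome 17 cluster stood lower in that order. miR-99b-5p had 7.95 ± 0.14 and 6.21 ± 0.43, a 3.34-fold difference ranked 22nd, and miR-125a-5p had 8.50 ± 0.20 and 7.11 ± 0.46, a 2.63-fold difference ranked 33rd. The lowest cartilage array stood above the highest bone array for miR-99a-5p (10.93 and 9.77), miR-99b-5p (7.75 and 7.09), miR-100-5p (9.46 and 8.09) and miR-125b-5p (13.06 and 10.82). For miR-125a-5p the tissues just overlapped, with both values at 8.19. After quantile normalization of all arrays together, the difference for miR-125b-5p at matched operation and week was between 2.49 and 2.93, against 3.10 to 3.39 as deposited. In both sham groups miR-100-5p then exceeded it, with 2.81 against 2.49 at 1 week and 3.07 against 2.67 at 6 weeks, so the order of these miRNAs depends on the normalization. In dissected tissue, fewer cells of a type and less RNA per cell cannot be told apart, here or in the comparisons of operation.

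**Figure D1:**
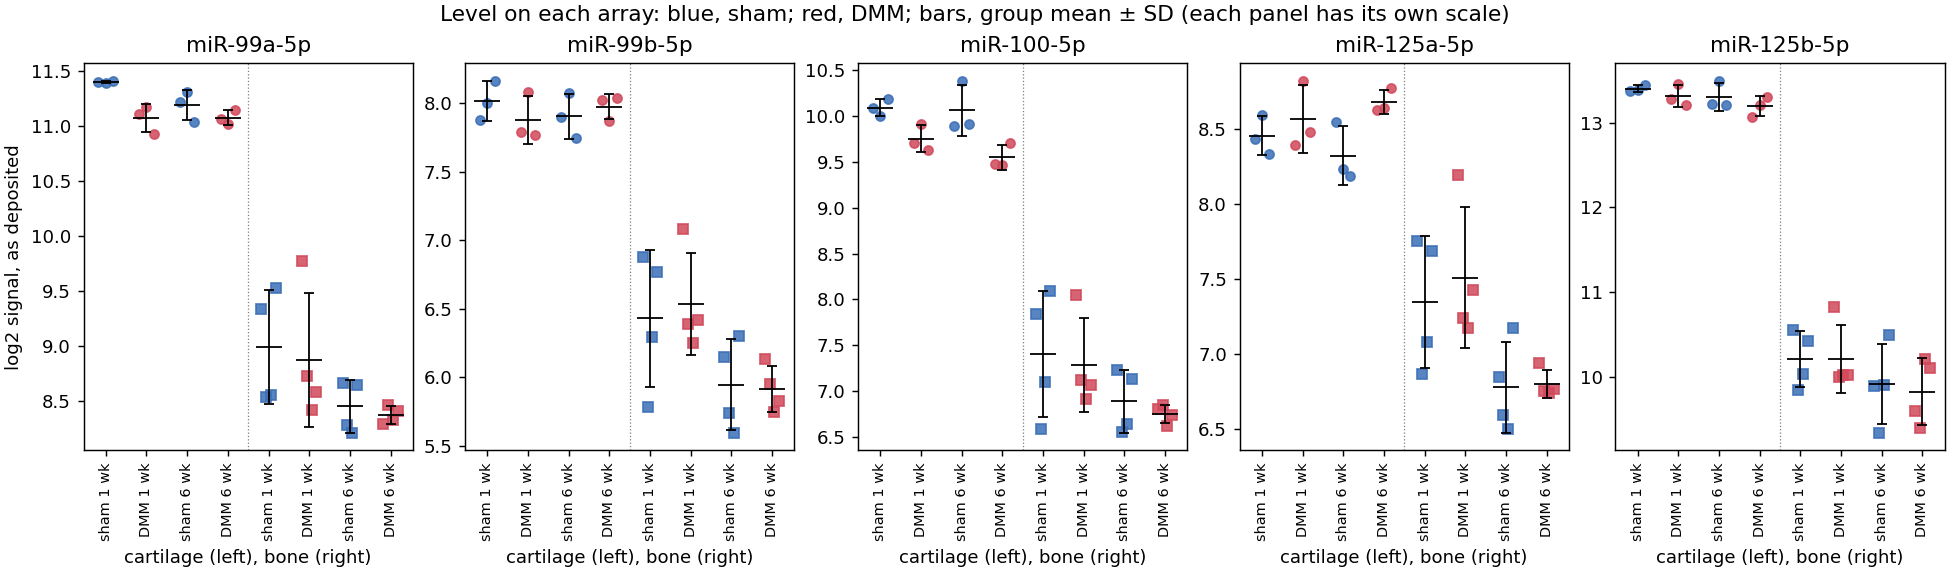
log2 signal of the 5 miRNAs on each of the 28 arrays, by tissue, operation and week; circles are cartilage pools, squares are single bone mice, blue is sham, red is DMM, and black bars are group means ± SD, with a separate vertical scale in each panel. Cartilage group means sit above bone group means for every miRNA, and for miR-125a-5p the arrays of the tissues just overlap at 8.19.

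In cartilage after DMM, miR-99a-5p was lower at 1 week and miR-100-5p at 6 weeks, and none of the other 3 passed the test at either week. Of the 5 miRNAs, 1 was called at each week, by limma with Benjamini-Hochberg adjustment over 438 rows at an adjusted p under 0.05. Among all rows 27.9% were called at 1 week (12.1% lower) and 16.9% at 6 weeks (7.31% lower), so 1 of 5 is close to the background. The median difference of the 5 was -0.14 at 1 week and -0.11 at 6 weeks, against -0.02 and -0.04 over all rows. After centring arrays on the 75th percentile the median of all rows at 1 week was -0.11, and higher calls made up 39.4% of the calls, against 56.6% as deposited and 44.4% after quantile normalization. Leaving out 1 array moved the count of all rows called at 1 week from 122 to 42 (without DMM replicate 3) or 56 (without sham replicate 3). At 6 weeks it moved that count from 74 to 44 or 20 (without DMM replicate 1 or 2) and to 166, 27 or 31 (without sham replicate 1, 2 or 3).

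miR-99a-5p, of the chromosome 16 cluster, had 11.40, 11.39 and 11.41 on the sham arrays at 1 week and 11.10, 11.17 and 10.93 on the DMM arrays. The groups did not overlap, and the sham pools had an SD of 0.01. The difference was -0.33 ± 0.10 (SE), 1.26-fold lower after DMM, with an adjusted p of 0.0309 by limma. It was -0.56 after quantile normalization (adjusted p 0.00943). The call was lost without DMM replicate 3 (difference -0.26, adjusted p 0.137) and without sham replicate 1, 2 or 3 (adjusted p 0.0825, 0.0632 and 0.0856). At 6 weeks the sham arrays read 11.22, 11.31 and 11.04 and the DMM arrays 11.06, 11.02 and 11.14, which overlap. Their difference was -0.11 ± 0.10 (SE), adjusted p 0.442 by limma, with a 95% interval from -0.34 to 0.11. The order of the group means of miR-99a-5p in cartilage was sham at 1 week (11.40), sham at 6 weeks (11.19), then both DMM groups at 11.07. The arrays of the last 3 groups overlapped, at 11.04 to 11.31 in sham at 6 weeks, 10.93 to 11.17 after DMM at 1 week and 11.02 to 11.14 after DMM at 6 weeks.

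miR-100-5p, of the chromosome 9 cluster, had 10.09, 10.00 and 10.18 in sham cartilage at 1 week and 9.71, 9.91 and 9.63 after DMM. At 6 weeks the sham arrays read 9.89, 10.38 and 9.91 and the DMM arrays 9.48, 9.46 and 9.71. At both weeks every DMM pool lay below every sham pool, and sham replicate 2 at 6 weeks stood above the other 2 of its group. The difference at 6 weeks was -0.51 ± 0.14 (SE), 1.43-fold lower after DMM, with an adjusted p of 0.0288 by limma. At 1 week it was -0.34 ± 0.14 (SE) and missed the threshold with an adjusted p of 0.0886, but passed after quantile normalization (-0.62, adjusted p 0.0130) and after centring on the 75th percentile (adjusted p 0.0487). The call at 6 weeks was lost after quantile normalization (-0.40, adjusted p 0.0899). It was also lost without sham replicate 2 (-0.35, adjusted p 0.122), without DMM replicate 1 (-0.48, adjusted p 0.0768) and without DMM replicate 2 (-0.47, adjusted p 0.119).

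miR-125a-5p, of the chromosome 17 cluster, had differences above 0. Sham cartilage had 8.54, 8.23 and 8.19 at 6 weeks and DMM cartilage 8.63, 8.64 and 8.77, with every DMM pool above every sham pool. The difference was 0.36 ± 0.14 (SE), a raw p of 0.0227 and an adjusted p of 0.0777 by limma, so it was not called. It passed after quantile normalization (0.47, adjusted p 0.0355), with array weights (0.42, adjusted p 0.0232) and without sham replicate 1 (0.47, adjusted p 0.0218). At 1 week the sham arrays had 8.43, 8.59 and 8.33 and the DMM arrays 8.39, 8.82 and 8.48, which overlap, with a difference of 0.11 ± 0.14 (SE) and a 95% interval from -0.19 to 0.41.

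miR-99b-5p, the neighbour of miR-125a-5p, had overlapping groups at both weeks. Its sham arrays had 7.88, 8.01 and 8.17 at 1 week and its DMM arrays 7.79, 8.08 and 7.77, and at 6 weeks 7.90, 8.07 and 7.75 against 8.02, 7.87 and 8.04. The differences were -0.14 (95% interval -0.41 to 0.14) and 0.07 (-0.20 to 0.34). miR-125b-5p, whose row carries the product of 2 loci, also overlapped. Its arrays read 13.38, 13.38 and 13.45 (sham) and 13.28, 13.46 and 13.21 (DMM) at 1 week, and 13.22, 13.49 and 13.20 against 13.06, 13.21 and 13.30 at 6 weeks. The differences of miR-125b-5p were -0.09 (-0.33 to 0.16) and -0.11 (-0.36 to 0.13), and their sign turned to 0.10 and 0.03 after quantile normalization, so no direction is given for it.

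Groups that did not overlap were thus seen for 2 of the 5 miRNAs at 1 week (miR-99a-5p and miR-100-5p) and for 2 at 6 weeks (miR-100-5p and miR-125a-5p). Among all rows 48.2% did not overlap at 1 week (23.3% with DMM lower) and 35.4% at 6 weeks (18% lower, 17.4% higher). Averaged over both weeks, 2 of the 5 miRNAs fell, against 24% of all rows called lower and 45.2% called in either direction. miR-100-5p fell by 0.43 on the log2 scale, or 1.34-fold, with an SE of 0.10 and an adjusted p of 0.00464 by limma. Leaving out any 1 array kept that adjusted p at or below 0.0147, and an exact permutation of the operation labels within each week, two-sided over 400 relabellings, gave an adjusted p of 0.0184. The smallest unadjusted p this permutation can give is 0.005. A row whose groups do not overlap, in the same direction at both weeks, reaches it, so this result adds little to the lack of overlap. miR-99a-5p fell by 0.22, or 1.17-fold, with an SE of 0.07 and an adjusted p of 0.0241, which passed the threshold no longer without DMM replicate 3 at 1 week (adjusted p 0.0641), DMM replicate 2 at 6 weeks (0.0576) or sham replicate 2 at 6 weeks (0.0692). miR-125a-5p had a mean difference of 0.23 ± 0.10 (SE) and an adjusted p of 0.0674. It passed after quantile normalization (0.28, adjusted p 0.0313), with array weights (0.30, adjusted p 0.0107), without DMM replicate 1 at 1 week (0.0413) and without sham replicate 1 at 6 weeks (0.0195).

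The difference between the weeks' effects was tested directly, and none of the 5 passed (limma adjusted p 0.999 for each), nor did any of the 438 rows (0% called). For miR-99a-5p the effect at 6 weeks minus that at 1 week was 0.22, with a 95% interval from -0.10 to 0.53, and for miR-100-5p it was -0.17, from -0.61 to 0.26. These intervals hold changes as large as the effects themselves, so the weeks cannot be ranked for either. In sham cartilage, the change from 1 to 6 weeks was between -0.21 (miR-99a-5p, adjusted p 0.306) and -0.03 (miR-100-5p, adjusted p 0.985), and 0 of 5 were called, against 0.228% of all rows.

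**Figure D2:**
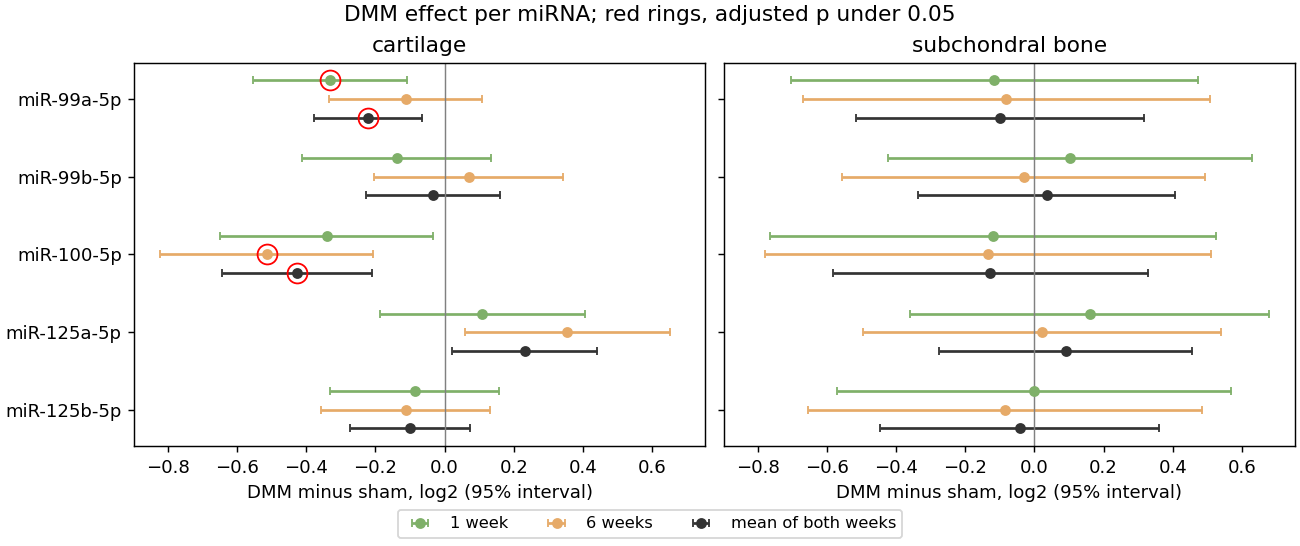
DMM minus sham on the log2 scale with 95% intervals from limma, for the 5 miRNAs in cartilage (left) and subchondral bone (right), at 1 week, at 6 weeks and averaged over both; red rings mark an adjusted p under 0.05. In cartilage miR-100-5p lies at -0.34, -0.51 and -0.43 and miR-125a-5p at 0.11, 0.36 and 0.23, while every bone interval crosses 0.

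Because a shift common to an array cancels in the difference of 2 rows on that array, the 10 pairs of the 5 miRNAs were compared within arrays. Only the change of such a difference between groups is read, since rows of different probes have no common level scale, and no test was run on it. A shift that depends on signal level does not cancel, and the pairs were compared in the values as deposited only. Quantile normalization moved the rows unequally, for example at 1 week to -0.62 for miR-100-5p and 0.10 for miR-125b-5p. miR-100-5p minus miR-125a-5p was 1.64 ± 0.22 in sham and 1.19 ± 0.11 in DMM cartilage at 1 week (SD, n = 3 each). At 6 weeks it was 1.74 ± 0.40 in sham and 0.87 ± 0.06 in DMM (SD, n = 3 each). The change was -0.45 at 1 week and -0.87 at 6 weeks, the latter a 1.83-fold change in the ratio, and DMM and sham pools did not overlap at either week. miR-99a-5p minus miR-125a-5p changed by -0.44 and -0.47, also with no overlap.

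Pairs that share a seed had such changes too. miR-99a-5p minus miR-100-5p, which differ by 1 base, changed by 0.01 at 1 week with overlap and by 0.40 at 6 weeks without. miR-125a-5p minus miR-125b-5p changed by 0.20 with overlap and by 0.47 without. So had pairs that share a cluster. miR-99b-5p minus miR-125a-5p changed by -0.25 without overlap at 1 week and by -0.29 with overlap at 6 weeks. miR-100-5p minus miR-125b-5p changed by -0.25 and -0.40, without overlap at either week. Of the 10 pairs 6 did not overlap at 1 week, against 46.7% of all pairs of rows in cartilage, and 7 did not at 6 weeks, against 32.9%. The 10 pairs are drawn from 5 miRNAs and are not independent. At 1 week all of the 6 but miR-99b-5p minus miR-125a-5p held miR-99a-5p or miR-100-5p. At 6 weeks all of the 7 but miR-99a-5p minus miR-99b-5p held miR-100-5p or miR-125a-5p. Those are the miRNAs whose own groups did not overlap, so the counts largely repeat that result.

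**Figure D3:**
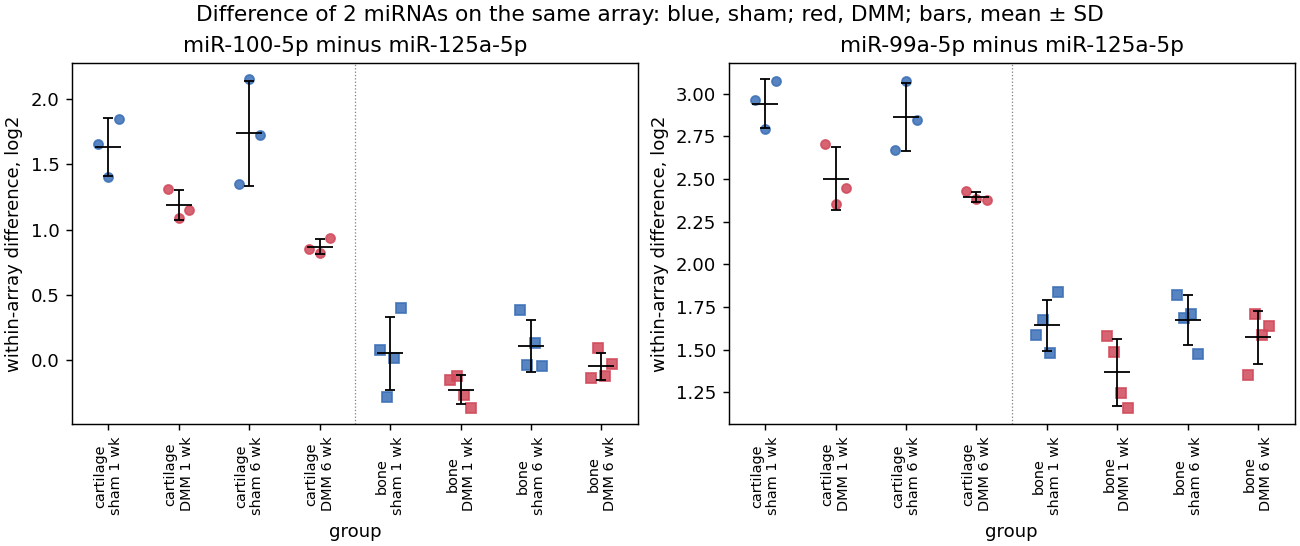
Difference in log2 signal between miR-100-5p and miR-125a-5p (left) and between miR-99a-5p and miR-125a-5p (right) on the same array, in the 8 groups; circles are cartilage pools, squares bone mice, blue sham, red DMM, and bars mean ± SD. In cartilage the DMM pools lie below the sham pools in both panels at both weeks, with means of 0.87 and 1.74 for miR-100-5p minus miR-125a-5p at 6 weeks, and in bone the groups overlap.

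Marker sums moved with operation in cartilage too, and their part in these differences was not tested. At 6 weeks the summed cartilage markers lay between 13.99 and 14.06 in sham and between 13.61 and 13.85 in DMM. The leukocyte sum lay between 8.64 and 9.79 in sham and between 8.00 and 8.52 in DMM, and neither of these overlapped. The erythroid sum (2 of 3 with a row) was 8.50 to 10.18 and 7.75 to 8.55, and the mesenchymal sum (3 of 5 with a row) 10.62 to 10.87 and 9.88 to 10.65. Both erythroid rows were called lower after DMM at 6 weeks, miR-451a (-1.34, limma adjusted p 0.0465) and miR-486a-5p (-0.50, adjusted p 0.0283). So were 2 of the 3 leukocyte markers with a row, where 7.31% of all rows were called lower. No cartilage or mesenchymal marker was called at that week. For both erythroid rows and the leukocyte sum, sham at 6 weeks had the highest mean of the 4 cartilage groups. miR-451a averaged 7.46 in sham and 7.46 in DMM at 1 week, and 9.13 and 7.79 at 6 weeks. For the leukocyte sum these means were 8.59, 8.42, 9.23 and 8.28. From 1 to 6 weeks in sham cartilage miR-451a differed by 1.67, which was not called (limma adjusted p 0.0989). At 1 week the cartilage sum was 13.94 to 14.22 in sham and 13.69 to 14.03 in DMM, the mesenchymal sum 10.68 to 10.80 and 10.15 to 10.80, and the leukocyte sum 8.27 to 8.78 and 8.21 to 8.69, all overlapping. Of the 4 cartilage markers 1 was called lower at 1 week, miR-455-5p (-0.40, limma adjusted p 0.0457; 6.84 to 7.30 in sham and 6.54 to 6.83 in DMM). miR-455-3p did not overlap either (8.59 to 8.92 and 8.18 to 8.49) and was not called (-0.46, adjusted p 0.0726). The endothelial marker miR-126a-3p (1 of 2 with a row) lay between 5.82 and 6.37 in sham and between 5.36 and 7.24 in DMM at 1 week, and between 5.93 and 7.18 and between 5.20 and 6.30 at 6 weeks. The sum of 4 muscle markers was 7.76 to 8.82 and 7.51 to 7.82 at 1 week, and 7.75 to 8.57 and 7.61 to 9.27 at 6 weeks, so both overlapped. Within that list the markers went different ways. miR-206-3p was called higher at 1 week (0.53, limma adjusted p 0.0107; 5.40 to 5.55 in sham and 5.73 to 6.14 in DMM) and at 6 weeks (0.53, adjusted p 0.0166; 5.13 to 5.35 and 5.66 to 5.94), with no overlap at either. Its signal was low: all these values lie below the median of row means in cartilage (6.25), and the sham values below the lower quartile (5.79). miR-1a-3p, miR-133a-3p and miR-133b-3p had differences of -0.97, -0.73 and -0.78 at 1 week, none of them called. miR-143-3p and miR-145a-5p, defining markers of smooth muscle and stroma, have no row in cartilage.

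The let-7 miRNAs of the same clusters, which silence growth genes such as Lin28 and Ras, were called at 1 week for 2 of the 3 clusters as deposited, where 12.1% of all rows were called lower, and for 1 of the 3 after quantile normalization. let-7c-5p, the partner of miR-99a-5p, was 1.39-fold lower after DMM at 1 week (-0.48 ± 0.11 SE, adjusted p 0.0101 by limma). let-7a-5p, a partner of miR-100-5p by its let-7a-2 copy, was 1.38-fold lower (-0.46 ± 0.13 SE, adjusted p 0.0188). let-7e-5p, the partner of miR-99b-5p and miR-125a-5p, differed by -0.02 (adjusted p 0.916). After quantile normalization let-7a-5p had -0.31 (limma adjusted p 0.142) and let-7e-5p also -0.31 (adjusted p 0.144), so these rows no longer stood apart, while let-7c-5p had -0.36 (adjusted p 0.00551). At 6 weeks the differences were -0.25, -0.27 and 0.24 in the same order, and 0 of 3 passed. For the mean of both weeks 2 of 3 fell, let-7a-5p and let-7c-5p, beside 24% of all rows called lower. let-7a-5p and let-7c-5p have further copies outside these clusters, and near-identical let-7 rows may share signal. Of the other 6 let-7 rows, 3 fell at 1 week (let-7b-5p, let-7f-5p and miR-98-5p), 1 at 6 weeks (let-7d-5p, -0.37, adjusted p 0.0399) and 5 in the mean of both weeks, all but let-7i-5p. Of all rows 12.1%, 7.31% and 24% were called lower in these comparisons, so 1 of 6 at 6 weeks is close to the background. The call of let-7c-5p at 1 week was lost without DMM replicate 3, and that of let-7a-5p without DMM replicate 2 or 3 or sham replicate 3. let-7b-5p lost its call without DMM replicate 3 or sham replicate 3, let-7f-5p in 10 of the 12 fits without 1 array and let-7d-5p at 6 weeks in 6 of 12; miR-98-5p at 1 week and the 7 let-7 calls in the mean of both weeks held in all 12.

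miR-10a-5p and miR-10b-5p are relatives of the miR-99/100 family whose genes lie among the Hox genes, and their seed, ACCCUGU, is close to ACCCGUA. miR-10a-5p was lower after DMM at 6 weeks (-0.45 ± 0.12 SE, adjusted p 0.0260 by limma), and miR-10b-5p had a difference of -0.42 and an adjusted p of 0.0543. Of all rows 7.31% were called lower at that week. The signal of miR-10a-5p was low, at 6.24 in sham and 5.78 in DMM, against a median of row means in cartilage of 6.25. The call of miR-10a-5p at 6 weeks was lost without DMM replicate 1 or 2 or sham replicate 2 or 3. miR-10a-5p and miR-10b-5p both fell in the mean of the weeks, by 0.39 and 0.34 (limma adjusted p 0.00344 and 0.0129), beside 24% of all rows called lower. Those calls held in all 12 fits without 1 array. Of 11 listed opposite arms 2 had a row. The list holds those of the 3 clusters and those of let-7a-1 (chromosome 13) and let-7c-2 (chromosome 15), which lie outside them. miR-99b-3p, cut from the same hairpin as miR-99b-5p, was 1.26-fold higher at 1 week (0.33 ± 0.11 SE, adjusted p 0.0490), where miR-99b-5p had -0.14, and that call held in 3 of the 12 fits without 1 array. It was also lost after centring on the 75th percentile (0.24, limma adjusted p 0.166). The signal of miR-99b-3p was low, at 5.42 in sham and 5.75 in DMM, below the lower quartile of row means in cartilage (5.79). miR-125a-3p had 0.15 and 0.06 at the 2 weeks and was not called.

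In subchondral bone none of the 5 miRNAs was called between DMM and sham, and neither was any of the 490 rows (0% at either week). At an unadjusted p under 0.05 there were 3 rows at 1 week and 2 at 6 weeks, none of them one of the 5. miR-99a-5p had 9.34, 8.54, 8.56 and 9.53 in sham mice at 1 week and 9.77, 8.72, 8.42 and 8.58 in DMM mice. At 6 weeks it had 8.67, 8.28, 8.22 and 8.65 in sham and 8.29, 8.46, 8.33 and 8.41 in DMM. The groups overlapped at both weeks, as they did for the other 4 and for all rows but 1.43% at 1 week and 0.408% at 6 weeks, and the differences were -0.12 ± 0.28 and -0.08 ± 0.28 (SE).

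miR-100-5p had 7.84, 6.59, 7.10 and 8.09 in sham bone and 8.04, 7.12, 6.91 and 7.06 after DMM at 1 week. At 6 weeks it had 7.23, 6.56, 6.64 and 7.13 in sham and 6.81, 6.85, 6.62 and 6.74 after DMM. The differences were -0.12 (95% interval -0.76 to 0.53) and -0.13 (-0.78 to 0.51). miR-125a-5p had differences of 0.16 (-0.36 to 0.68) and 0.02 (-0.50 to 0.54), miR-99b-5p 0.10 (-0.42 to 0.63) and -0.03 (-0.56 to 0.49), and miR-125b-5p -0.00 (-0.57 to 0.57) and -0.08 (-0.65 to 0.49). All these intervals include the cartilage effect of the same miRNA and week, so a change of that size in bone is not excluded with 4 mice a group. Averaged over the weeks the differences lay between -0.13 (miR-100-5p) and 0.09 (miR-125a-5p), with a limma adjusted p of 0.998 for each, and the weeks' effects differed by -0.14 (miR-125a-5p) to 0.03 (miR-99a-5p), none called. None of the 10 pairs of miRNAs separated DMM from sham bone within arrays, against 0.994% of all pairs of rows at 1 week and 0.31% at 6 weeks.

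The effect in cartilage minus that in bone was tested directly over the 359 shared rows. None of the 5 passed at 1 week, where 0.279% of all rows did, or at 6 weeks, where 0.557% did. miR-100-5p had -0.22 (95% interval -1.02 to 0.58) and -0.38 (-1.18 to 0.42), and miR-125a-5p -0.05 (-0.70 to 0.60) and 0.33 (-0.32 to 0.98), with limma adjusted p-values of 0.937, 0.952, 0.982 and 0.952. The effects seen in cartilage are therefore not shown to differ from those in bone.

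Sham bone at 6 weeks minus sham bone at 1 week gave differences between -0.57 and -0.30, and none passed the test. The 2 groups hold different mice, so time after surgery, age and differences between sets of mice cannot be told apart. From 1 to 6 weeks, miR-125a-5p differed by -0.57 ± 0.24 (SE), with a raw p of 0.0332 and an adjusted p of 0.414 by limma. miR-99a-5p had -0.54, miR-100-5p -0.51, miR-99b-5p -0.49 and miR-125b-5p -0.30. Single mice moved some of these values by over 1.5 times: miR-100-5p had -0.29 without mouse 96 and -0.78 without mouse 68, both sham at 1 week. miR-125b-5p had -0.19 without mouse 66, sham at 1 week, and -0.11 and -0.50 without mice 12 and 26, sham at 6 weeks. All 5 were lower at 6 weeks, with a median of -0.51 against -0.09 over the 490 rows, of which 0% were called and 54 had a raw p under 0.05. The summed mesenchymal markers (5 of 5 with a row) lay between 10.44 and 11.71 at 1 week and between 10.12 and 10.63 at 6 weeks in these sham groups. As a median difference over each list, the mesenchymal markers had -0.54, the endothelial markers -0.56 and the cartilage markers (3 of 4 with a row) -0.43. The leukocyte markers had a median of -0.47 and the erythroid markers 0.78. Within the leukocyte list the markers went different ways. miR-223-3p had -0.79, miR-142a-5p -0.59 and miR-142a-3p -0.47, while miR-150-5p had 0.26 and miR-342-3p 0.08. The muscle marker miR-206-3p had 0.56, with a raw p of 0.0355 and an adjusted p of 0.414 by limma. None of these markers was called. The part of these lists in the differences of the 5 miRNAs was not tested.

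Bone arrays of 1 group differed in all 5 miRNAs at once. Among DMM mice at 1 week, mouse 67 had the highest value of its group for all 5: 9.77 for miR-99a-5p, 7.09 for miR-99b-5p, 8.04 for miR-100-5p, 8.19 for miR-125a-5p and 10.82 for miR-125b-5p. Among sham mice at 1 week, mouse 68 had the lowest for all 5, and its array had the lowest mean correlation with its group, 0.866. Correlations of deviations from the group means describe this over 16 arrays. They share array, RNA input and dissection, and carry no test. Among miR-99a-5p, miR-99b-5p, miR-100-5p and miR-125a-5p, r lay between 0.87 and 0.96, and miR-125b-5p had 0.62 to 0.74 with these 4. The summed mesenchymal markers had r of 0.94 with miR-99a-5p, 0.83 with miR-99b-5p, 0.90 with miR-100-5p, 0.88 with miR-125a-5p and 0.57 with miR-125b-5p. The summed cartilage markers, in the same order, had 0.87, 0.82, 0.91, 0.82 and 0.66, and the endothelial sum had between 0.30 (miR-125b-5p) and 0.80. The leukocyte sum had between -0.27 and 0.36, the erythroid sum between 0.04 and 0.28, and miR-206-3p, the 1 muscle marker with a row in bone, between -0.61 and 0.12.

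The rows most like each miRNA in bone, by r of these deviations, included markers of mesenchymal cells and of cartilage. For miR-99a-5p they were let-7e-5p (0.97), let-7c-5p (0.95) and miR-100-5p (0.95). For miR-99b-5p they were miR-145a-5p (0.98), miR-193b-3p (0.97) and miR-674-3p (0.97). For miR-100-5p they were miR-196a-5p (0.97), miR-151-5p (0.97) and miR-24-3p (0.97). For miR-125a-5p they were miR-214-3p (0.98), miR-99b-5p (0.96) and let-7e-5p (0.94), and for miR-125b-5p miR-23a-3p (0.86), miR-140-3p (0.79) and miR-3077-5p (0.78). With group means kept in, the closest rows were let-7e-5p, miR-145a-5p, miR-196a-5p, miR-214-3p and miR-23a-3p, in the order of the 5 miRNAs, again the first of each set. The next places then held miR-100-5p and miR-196a-5p for miR-99a-5p, miR-193b-3p and miR-674-3p for miR-99b-5p, and miR-151-5p and miR-99a-5p for miR-100-5p. They held miR-99b-5p and miR-145a-5p for miR-125a-5p, and miR-140-3p and miR-214-3p for miR-125b-5p.

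In cartilage these correlations ranged from 0.04 to 0.92. miR-100-5p and miR-125b-5p, which share the chromosome 9 cluster, were each other's closest row, with r of 0.92 over 12 arrays after removing group means. miR-99a-5p had 0.76 with miR-99b-5p, 0.77 with miR-100-5p and 0.77 with miR-125b-5p. miR-125a-5p stood apart, with 0.04 to miR-100-5p, 0.23 to miR-125b-5p and 0.37 to its neighbour miR-99b-5p. With group means kept in, miR-100-5p and miR-125a-5p had r of -0.52. Over the marker sums in cartilage, the highest r were those of the muscle sum with miR-100-5p (0.62) and miR-125b-5p (0.59), and it had between 0.10 and 0.41 with the other 3. The mesenchymal sum had between -0.19 and 0.48 with the 5 miRNAs, the cartilage sum between -0.21 and 0.41 and the leukocyte sum between -0.22 and 0.24. The erythroid sum had between -0.45 and 0.06 and the endothelial marker between -0.53 and -0.07.

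The other rows most like each miRNA in cartilage after removing group means were miR-154-5p (0.86), miR-411-5p (0.79) and miR-299b-5p (0.79) for miR-99a-5p. They were miR-324-3p (0.92), miR-495-3p (0.90) and miR-329-3p (0.89) for miR-99b-5p, and miR-342-3p (0.86) and miR-3472 (0.86) for miR-100-5p. For miR-125a-5p they were miR-3069-3p (0.86), miR-320-3p (0.83) and miR-6412 (0.75), and for miR-125b-5p miR-365-3p (0.85) and miR-342-3p (0.83). With group means kept in, the closest rows were miR-337-3p (0.89), miR-299b-5p and miR-411-5p for miR-99a-5p, and miR-541-5p (0.79), miR-678 and miR-7224-3p for miR-99b-5p. For miR-100-5p they were miR-434-3p (0.92), miR-329-3p and miR-16-5p, for miR-125a-5p miR-6412 (0.78), miR-5100 and miR-5122, and for miR-125b-5p miR-365-3p (0.89), miR-100-5p and miR-193b-3p.

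**Figure D4:**
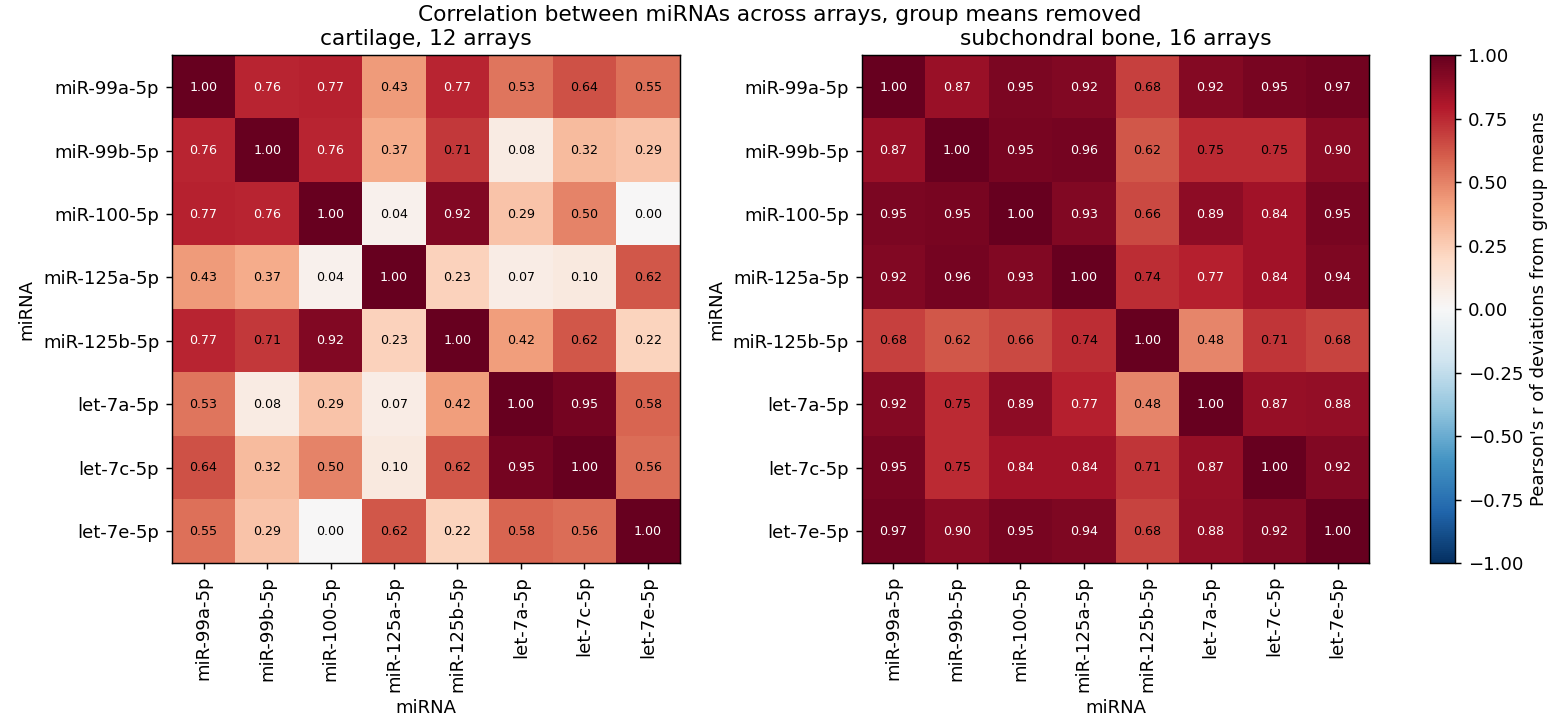
Pearson's r between the 5 miRNAs and the let-7 miRNAs of their clusters over 12 cartilage arrays (left) and 16 bone arrays (right), after subtracting group means; red is positive and blue negative. In bone miR-99a-5p, miR-99b-5p, miR-100-5p and miR-125a-5p have r between 0.87 and 0.96 with each other, and in cartilage miR-125a-5p has 0.04 with miR-100-5p, where miR-125b-5p has 0.92.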

How the data were processed

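The authors deposited 1 table of log2 signals for 569 miRNA rows on 28 Agilent arrays. The unit was read from the range of the values, and limma 3.20.9 is listed in the submitters' processing notes. The sources used here do not give the background correction, the normalization or the filter on rows. Values were present for 438 rows in cartilage and 490 in bone. The number of arrays limits the precision. Unused sample columns numbered 0. Groups came from sample titles (operation, week) and the source field (tissue).

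Group means were modelled in R 4.3.3 with limma 3.58.1 (jsonlite 2.0.0 for labels), over the 12 cartilage, the 16 bone or, between tissues, all 28 arrays. Benjamini-Hochberg adjustment ran over all rows of each of 12 comparisons, with a threshold of 0.05, and p-values measure the spread between pools or mice. The test was tested on simulated data. Summaries and plots used Python 3.11.15 with pandas 2.3.3, numpy 2.4.6 and matplotlib 3.10.9. A marker sum is the log2 of summed linear signals.

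The rows named were the 5 members, let-7 partners, other arms, sequence relatives, other let-7, cell type markers and, per member and tissue, the 3 rows of highest correlation. Members and lists were chosen with earlier results of these data known. Other settings were array weights, 1 weight per tissue, 75th percentile centring, quantile normalization, a robust prior with trend, only rows above the median level, all 28 arrays, a replicate block, only the 2 groups compared, exact permutation, and leaving out each array.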

Additional observations from a re-analysis of the deposited data

Results flagged for a closer look

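Of 20 sets of 4 bone arrays examined, 5 miRNAs in 4 groups, 2 held an array far from the others by Dixon's ratio of gap to range; about 1 in 20 would by chance, and cartilage groups of 3 were not examined. In DMM bone at 1 week, miR-125b-5p had 10.82 in mouse 67 against 10.00, 10.02 and 10.03 in the others, a ratio of 0.961. In DMM bone at 6 weeks, miR-125a-5p had 6.94 in mouse 5 against 6.75, 6.74 and 6.77, a ratio of 0.845.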

How the results depend on the processing

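For the 5 miRNAs, 405 values under other settings kept their direction where called and their side of the threshold, 7 newly passed it and 8 no longer did. With 1 array left out these counts were 966, 4 and 10, and no called value changed sign. Most of these results were not called in the main fit, so keeping their side mostly meant staying uncalled. Of the called ones, miR-99a-5p at 1 week stayed called in 6 of 8 other settings and 8 of 12 fits without 1 array. miR-100-5p at 6 weeks did in 4 of 8 and 9 of 12. In the mean of both weeks miR-99a-5p did in 7 of 8 and 9 of 12, and miR-100-5p in 7 of 8 and 12 of 12. In cartilage at 1 week, where 1 of the members was called, 2 were after quantile normalization, 2 after centring on the 75th percentile and 2 with only the 2 groups compared, and 0 with all 28 arrays; leaving out 1 array gave 0 to 2. At 6 weeks, also 1, array weights gave 2, and all 28 arrays and only the 2 groups compared gave 0; leaving out 1 array gave 0 to 2. For the mean of both weeks, 2, all 28 arrays gave 0, and leaving out 1 array gave 1 to 3. After quantile normalization and with array weights miR-125a-5p was called as well in that mean. The fit of all 28 arrays takes in the wider spread of bone. For miR-99a-5p in that fit the adjusted p at 1 week was 0.586, and for miR-100-5p at 6 weeks 0.404. Replicate numbers did not pair the cartilage arrays: same-numbered DMM and sham arrays had correlations of deviations of 0.03, -0.39 and -0.37 at 1 week and -0.45, -0.48 and -0.04 at 6 weeks. With the replicate number as a block, the calls among the members numbered 0 at 1 week, 0 at 6 weeks and 2 for the mean of both weeks; all rows called at 6 weeks went from 74 to 43. All rows called at 1 week went from 122 to 54 without rows below the median level and 27 with all 28 arrays. At 6 weeks they went from 74 to 40 without low rows, 172 with array weights, 2 with all 28 arrays and 29 with only the 2 groups. For the mean of weeks they went from 198 to 110 without low rows and 71 with all 28 arrays. Leaving out low rows tested only rows at or above the median level. The fit of all 28 arrays tested only the 359 rows with a value in both tissues. Fewer rows were thus tested under both settings, and a lower count without low rows need not be a lower share. With all 28 arrays the share was lower as well. There 27 of 359 rows were called at 1 week, 2 at 6 weeks and 71 for the mean of weeks. As deposited, with the 12 cartilage arrays, these were 122, 74 and 198 of 438. For sham cartilage over time, array weights gave 46 called rows against 1, and for the tissue difference at 1 week 24 against 1; leaving out mouse 68 gave 5 against 0 for sham bone over time. For the mean of weeks in cartilage, higher calls were 36.2% of calls after centring on the 75th percentile against 47.0%. That centring moved the median of all rows from -0.06 to 0.08 for bone at 1 week, from -0.09 to 0.03 for sham bone over time, and from 0.10 to -0.09 for the tissue difference at 1 week. The causes of these changes were not tested. Bone spread limits what 4 mice a group can show, and signal over background was not analysed here.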
